A study of Mus musculus with 32 samples.

Results

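The 1092 regions described here carried the active histone mark H3K27ac before induction of Ikaros and had no H3K27ac peak 2 h later. They were selected on the H3K27ac calls themselves. The 8 H3K27ac peak lists were merged into 39289 regions, and a region counted as lost when it overlapped a peak in both libraries at 0 h and in neither library at 2 h. Lost regions made up 2.78% of all merged regions and 6.18% of the 17668 regions called in both 0 h libraries. They were compared with 15450 kept regions, called in both 0 h and both 2 h libraries, and at times with 1465 gained regions, called in neither 0 h and both 2 h libraries. The remaining 1126 regions called in both 0 h libraries had a peak in exactly 1 of the 2 h libraries and belong to neither class.

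All samples came from B3, a line of mouse pre-B cells, into which a retrovirus had brought HA-tagged Ikaros joined to ERt2, so the 0 h samples carried the construct too. The state of the cells' own Ikaros gene is not given in the sources used here. Cells received no 4-hydroxytamoxifen (4-OHT) at 0 h or 500 nM 4-OHT for 30 min, 1 h or 2 h. Chromatin immunoprecipitation with sequencing (ChIP-seq) was done for HA-Ikaros, the remodeller CHD4 and H3K27ac, with 2 replicates per time and target. An HA pulldown from cells without the construct was not analysed here. Ikaros bound before induction and background of the HA pulldown therefore cannot be told apart in the 0 h Ikaros peaks. A time course of 4-OHT in cells without the construct was not analysed here, so effects of 4-OHT and of Ikaros cannot be told apart.

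H3K27ac is placed by the acetyltransferases p300 and CBP at active promoters and enhancers, where it neutralises a lysine charge and is read by bromodomain proteins, and it is removed by histone deacetylases. Ikaros (IKZF1) is a zinc-finger transcription factor of lymphoid development, needed for pre-B cells to leave the cycling stage and differentiate. It recruits the NuRD complex, which joins the remodelling ATPase CHD4 or CHD3 to the deacetylases HDAC1 and HDAC2, and ERt2, a mutant oestrogen receptor domain, keeps the fusion out of the nucleus until 4-OHT binds it. Ikaros zinc fingers recognise sequences built around GGGA or GGAA.

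The first 4 sequences come from the lost regions ranked 2 to 5 by their mean rank of 0 h fold and are 200 bp windows centred on the 0 h H3K27ac summit. They show the DNA under strong 0 h peaks whose call was lost. The region ranked first, near Impact, is described with its values further on, and its sequence is not printed. Each is the plus strand of GRCm38 (mm10) from RefSeq, in lower case, with every GGAA or GGGA word in capitals, read on this strand or, as TTCC or TCCC, on the other. Overlapping words run together. The windows lie at chr7:144769916-144770115 (Ano1), chr7:145047674-145047873 (Ccnd1), chr4:129251386-129251585 (C77080) and chr6:89639861-89640060 (Txnrd3), and are named by the nearest protein-coding start site.
Ano1: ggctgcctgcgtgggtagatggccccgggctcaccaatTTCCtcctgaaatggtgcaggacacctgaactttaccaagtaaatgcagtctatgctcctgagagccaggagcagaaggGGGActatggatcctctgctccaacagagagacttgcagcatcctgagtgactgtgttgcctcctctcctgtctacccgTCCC
Ccnd1: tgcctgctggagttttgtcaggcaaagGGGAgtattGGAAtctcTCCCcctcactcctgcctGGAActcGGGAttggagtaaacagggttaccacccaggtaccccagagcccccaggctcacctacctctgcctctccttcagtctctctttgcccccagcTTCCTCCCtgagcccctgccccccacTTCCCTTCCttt
C77080: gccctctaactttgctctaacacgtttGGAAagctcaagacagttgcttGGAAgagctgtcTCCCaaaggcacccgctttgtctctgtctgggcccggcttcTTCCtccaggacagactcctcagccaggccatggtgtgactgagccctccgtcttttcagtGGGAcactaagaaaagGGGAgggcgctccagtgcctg
Txnrd3: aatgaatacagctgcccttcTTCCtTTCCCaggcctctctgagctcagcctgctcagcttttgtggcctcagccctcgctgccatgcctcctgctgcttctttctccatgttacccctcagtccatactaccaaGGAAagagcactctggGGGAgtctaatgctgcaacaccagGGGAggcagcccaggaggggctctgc
The windows hold 3, 10, 6 and 6 of the words in that order. The longer word TGGGAA, on either strand, occurs once in the Txnrd3 window and in none of the other 3.

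The next 4 sequences come from the lost regions with the strongest Ikaros peaks at 2 h and are centred on the 2 h Ikaros summit instead, because they show what Ikaros occupied after the call was lost. They lie at chr4:139651033-139651232 (Tas1r2), chr17:30346956-30347155 (Btbd9), chr4:141917832-141918031 (Fhad1) and chr7:82109310-82109509 (Sh3gl3).
Tas1r2: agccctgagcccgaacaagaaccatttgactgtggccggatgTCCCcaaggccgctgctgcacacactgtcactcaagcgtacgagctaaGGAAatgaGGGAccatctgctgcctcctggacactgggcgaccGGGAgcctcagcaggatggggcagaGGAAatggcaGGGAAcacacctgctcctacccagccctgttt
Btbd9: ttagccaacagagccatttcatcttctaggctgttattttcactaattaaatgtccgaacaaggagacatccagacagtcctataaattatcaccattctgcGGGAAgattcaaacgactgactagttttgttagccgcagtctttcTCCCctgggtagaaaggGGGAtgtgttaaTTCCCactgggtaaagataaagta
Fhad1: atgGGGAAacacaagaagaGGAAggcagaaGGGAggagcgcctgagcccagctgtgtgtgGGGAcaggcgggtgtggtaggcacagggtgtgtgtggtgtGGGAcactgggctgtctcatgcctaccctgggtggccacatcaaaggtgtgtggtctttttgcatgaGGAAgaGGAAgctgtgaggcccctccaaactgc
Sh3gl3: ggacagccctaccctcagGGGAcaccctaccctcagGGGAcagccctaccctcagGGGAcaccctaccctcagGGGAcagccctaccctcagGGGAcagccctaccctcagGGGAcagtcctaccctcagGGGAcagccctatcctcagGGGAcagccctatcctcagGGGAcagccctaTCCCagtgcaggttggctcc
They hold 7, 6, 8 and 10 words, and TGGGAA occurs once, in the Btbd9 window. The Btbd9 and Sh3gl3 windows lie beside their H3K27ac region, with 0 bases inside it, so the Ikaros peak there reached into the region from its flank. The Sh3gl3 window is a short tandem repeat in which nearly every copy carries GGGA. The density of the words over all lost regions was close to that in other regions. In 300 bp windows at the 0 h summit there were on average 2.53 words per 100 bp in lost regions, 2.48 in kept regions and 2.28 in the 1155 kept regions whose mean 0 h fold lay between the lower and upper quartile of the lost regions (3.77 to 5.02). These 1155 serve below as the kept regions of like strength. TGGGAA on either strand occurred in 30.1% of the lost windows, 24.0% of the kept windows and 25.6% of the kept windows of like strength.

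Other short words were counted in lost regions and in kept regions of like strength. The RUNX word TGTGGT occurred in 21.5% and 24.0% of the windows, the AP-1 word TGANTCA in 7.69% and 9.26%, the E-box CAGCTG in 20.1% and 15.4%, and the E-box CACGTG bound by Myc in 6.32% and 4.07%, each searched on both strands. The median GC content was 49.7% in lost windows, 53.0% in kept windows and 47.7% in kept windows of like strength. CpG dinucleotides averaged 1.95 per 100 bp in lost windows and 4.6 in kept windows, most of which are promoters, but 2.22 in kept windows of like strength. These are descriptions of letters in a window, with no test, and do not show binding.

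The H3K27ac libraries had a coverage of 3.75 to 4.34 fragments per base and 21468 to 33664 peaks. Of 10 pre-B marker genes 9, among them Cd79a, Igll1, Vpreb1, Pax5 and Ebf1, had an H3K27ac region within 1 kb of a start site in both 0 h libraries, beside 9788 of all 21951 protein-coding genes. The same held for 2 of 8 T cell markers (Cd3d and Zap70) and 0 of 8 myeloid markers. These counts were not tested. No pre-B marker gene had a lost region within 20 kb. Peaks were called in each library by itself, so a missing peak means a signal under that library's threshold and not the absence of acetylation. Nothing states that replicates came from separate cultures, so the p-values below measure the spread between libraries, which may be technical.

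Lost regions were weak before induction. Their median fold over background was 4.41 in 0 h replicate 1 and 4.12 in replicate 2, against 12.1 and 10.1 in kept regions. At their summits this amounted to medians of 25 and 24 fragments. At the background of the library, called peaks had at least 14 and 15 fragments in the 0 h replicates. At 2 h the minima were 12 in replicate 1 and 13 in replicate 2. They do not cover places with a higher local background. The regions were also narrow, with a median width of 872 bp against 2616 bp in kept regions and 1490 bp in kept regions of like strength. This width is that of peaks merged over all 8 lists, and lost regions have no 2 h peak by the rule, so part of the gap is set by the selection. A wider region also has more room for an overlap of 1 bp with an Ikaros or CHD4 peak. The share of regions that were lost was 29.3% of the 92 regions with a mean 0 h fold below 3 and 32.6% of the 1148 from 3 to below 4, and above that it was lower in each stronger class, at 23.3% from 4 to below 5, 7.93% from 5 to below 7 and 1.45% from 7 to below 10. Only 8 of the 8719 regions with a fold of 10 or more were lost. An Ikaros peak in both 0 h libraries was found at 18.5% of the 27 lost regions with a fold below 3, at 11.8% from 3 to below 4 and at 29.5% from 5 to below 7, against 6.98%, 4.23% and 13.8% of kept regions. The fold values come from the calls that chose the members and, like the width, are given as a description.

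At the edge of the rule, lost regions with the weakest 0 h calls lay near Phf14 and Eya1, where the smaller 0 h −log10 q was 1.4. In 77 lost regions (7.05%) that value was under 2, and in 437 it was at least 5. Just outside the rule, regions near Mlh3, Ift27 and Sla2 were called in both 0 h libraries and in 1 of the 2 h libraries with a fold of 2.71 and a −log10 q of 1.31.

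**Figure D1:**
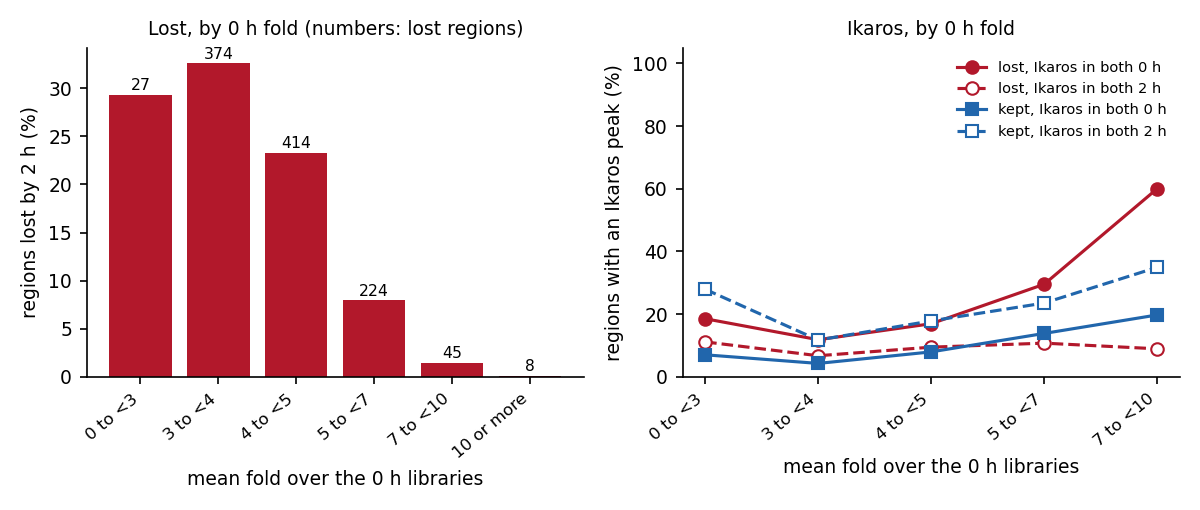
The left panel plots the percentage of regions called in both 0 h libraries that were lost by 2 h, by mean 0 h H3K27ac fold, with the number of lost regions above each bar. The right panel plots the percentage of lost and of kept regions with an Ikaros peak in both libraries at 0 h (filled) or 2 h (open) for the bins below a fold of 10. At 5 to below 7, 29.5% of lost and 13.8% of kept regions had Ikaros at 0 h.

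Fewer lost regions were called at 1 h than at 30 min, in each replicate. Of the 1092 lost regions, 831 (76.1%) had a peak in 30 min replicate 1, 484 (44.3%) in 30 min replicate 2, 440 (40.3%) in 1 h replicate 1 and 203 (18.6%) in 1 h replicate 2. The 30 min and 1 h calls were not part of the rule, although their peaks were among those merged into regions and so helped to set the boundaries. Among all regions called in both 0 h libraries, the lost ones included, the shares were 97.9% and 94.0% at 30 min and 94.2% and 88.8% at 1 h. Kept regions of like strength had a peak in 98.5% and 92.4% at 30 min and in 94.8% and 81.4% at 1 h. Each 30 min and 1 h library thus called a smaller share of the lost regions than of these. Lost regions were chosen as uncalled at 2 h and kept regions as called then, so part of this gap is set by the selection. In lost regions the replicates differed by more than 20 percentage points at both times, and replicate 2 was the lower one in both classes.

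Taken by their pattern, 193 lost regions (17.7%) were already uncalled in all 4 libraries of 30 min and 1 h. Under a rule on replicate 1 or on replicate 2 alone, the share uncalled at both times was 36.6% without replicate 2 and 49.1% without replicate 1. Another 149 (13.6%) were called in both 30 min libraries and in neither 1 h library, and 104 (9.52%) kept their call in both libraries of both times and were uncalled at 2 h alone. A call that was absent in both 30 min libraries and back in both at 1 h was rare, at 6 regions (0.549%). The other 640 (58.6%) had a peak in 1 replicate and not in the other at 30 min, 1 h or both. By 1 h, 589 (53.9%) were uncalled in both libraries, against 2.25% of kept regions of like strength. The earliest group had a median 0 h fold of 3.88 and the group that kept its call to 1 h a median of 4.92.

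**Figure D2:**
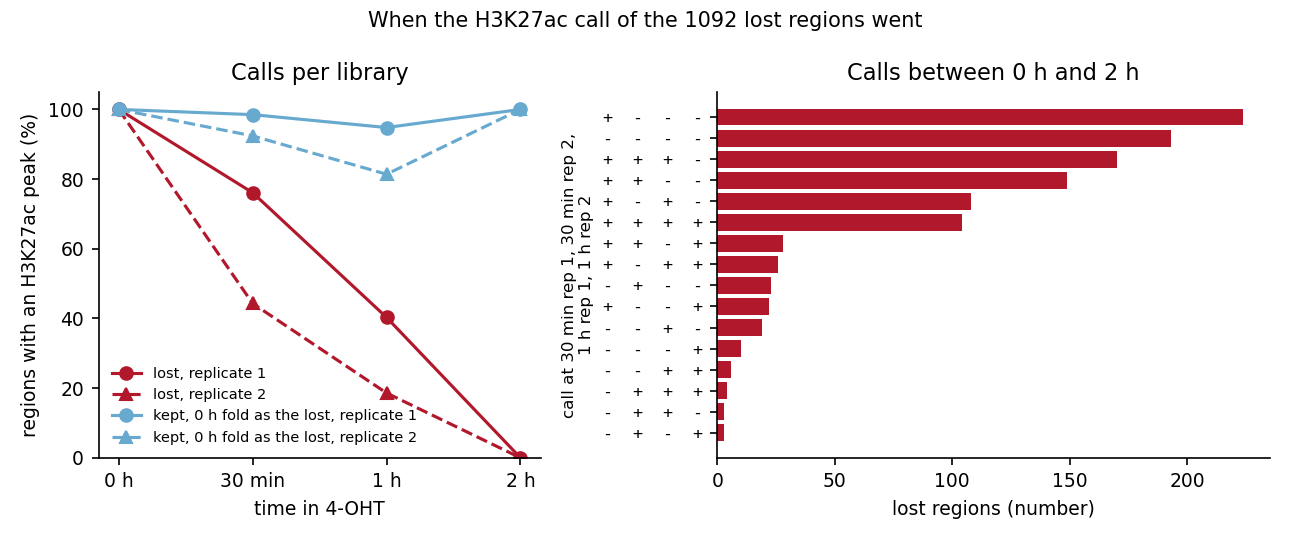
The left panel plots the percentage of lost regions (red) and of kept regions of like strength (light blue) with an H3K27ac peak in each library against time in 4-OHT. The 0 h and 2 h points are set by the rule. The right panel counts the 1092 lost regions by their calls (+) in the 30 min and 1 h libraries, the most frequent pattern being a call in 30 min replicate 1 alone (224 regions).

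Lost regions where Ikaros was found after 4-OHT were called for H3K27ac more often at 30 min and 1 h than the others, in each of the 4 libraries. An Ikaros site here is a region with an Ikaros peak in both libraries of 30 min, 1 h or 2 h. Such a site was found at 51.3% of all regions called in both 0 h libraries, 55.9% of kept regions and 23.5% of those of like strength. In lost regions the number was 172 (15.8%). Of these, 88.4% and 67.4% were called in the 30 min H3K27ac libraries and 49.4% and 32.0% in the 1 h libraries, which is 14.6, 27.4, 10.8 and 15.9 percentage points above the 920 without a site. The mean difference was 17.2 ± 7.17 percentage points (SD, n = 4 libraries) and was positive in 4 of 4 libraries. The exact two-sided sign-flip permutation p was 0.13, the smallest that 4 libraries allow, so the design cannot reach 0.05. The median 0 h fold was close in both classes, at 4.40 and 4.27. The 30 min and 1 h H3K27ac peaks helped to set the width of a region, and a wider region has more room for an Ikaros peak. The split and the calls are therefore not independent. The widths of the classes were not compared, and the part of width in the difference was not tested. The 219 lost regions with an Ikaros peak in both 0 h libraries were also called more often than the other 873, by 5.47 ± 2.92 percentage points (SD, n = 4 libraries, positive in 4 of 4, exact sign-flip permutation p = 0.13), with median 0 h folds of 4.82 and 4.23. The difference between these splits was not tested. The 255 lost regions within 1 kb of a start site were also called more often than the 837 farther away, by 8.41 ± 3.16 percentage points (SD, n = 4 libraries, positive in 4 of 4, exact sign-flip permutation p = 0.13), with median 0 h folds of 4.24 and 4.32. The splits by 0 h Ikaros and by start site were added after the values were seen.

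Ikaros had peaks at a larger share of lost regions in both 0 h libraries than in any later one, while for kept regions both the 1 h and 2 h libraries were above those of 0 h. In the 0 h libraries 23.5% and 31.1% of lost regions had an Ikaros peak, at 30 min 13.3% and 6.59%, at 1 h 17.6% and 22.5%, and at 2 h 13.5% and 16.3%. In kept regions the values were 34.2% and 40.1%, 40.9% and 25.7%, 53.7% and 60.5%, and 55.2% and 59.5%. The difference between lost and kept regions therefore widened, from −10.7 and −8.95 percentage points at 0 h to −27.7 and −19.1 at 30 min, −36.1 and −38.0 at 1 h, and −41.7 and −43.2 at 2 h. This trend passed the test (Spearman's rho = −0.976, exact two-sided permutation p = 0.000794, adjusted p = 0.00317 over 4 trends, n = 8 libraries). Pearson's r was −0.920 (exact permutation p = 0.00238, adjusted p = 0.00952) and was −0.974 without the 2 h libraries.

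The fall in lost regions taken alone did not pass (rho = −0.390 with p = 0.361 by exact permutation and 0.361 adjusted, n = 8 libraries). Its r was −0.402 (p = 0.331 by exact permutation, 0.441 adjusted), and −0.379 when the 2 h libraries were left out. When each list was shortened to the length of the shortest list of its target, it did (rho = −0.878, exact permutation adjusted p = 0.0201). The Ikaros libraries had a coverage of 3.59 and 3.13 fragments per base at 0 h and 1.98 to 2.85 later, and the part of depth in the fall was not tested. Against the kept regions of like strength the Ikaros share of lost regions was 13.6 and 17.6 points higher at 0 h, within 1 point at 30 min, and 10.9 and 13.2 points lower at 2 h. That trend passed too (rho = −0.976, exact permutation adjusted p = 0.00317).

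**Figure D3:**
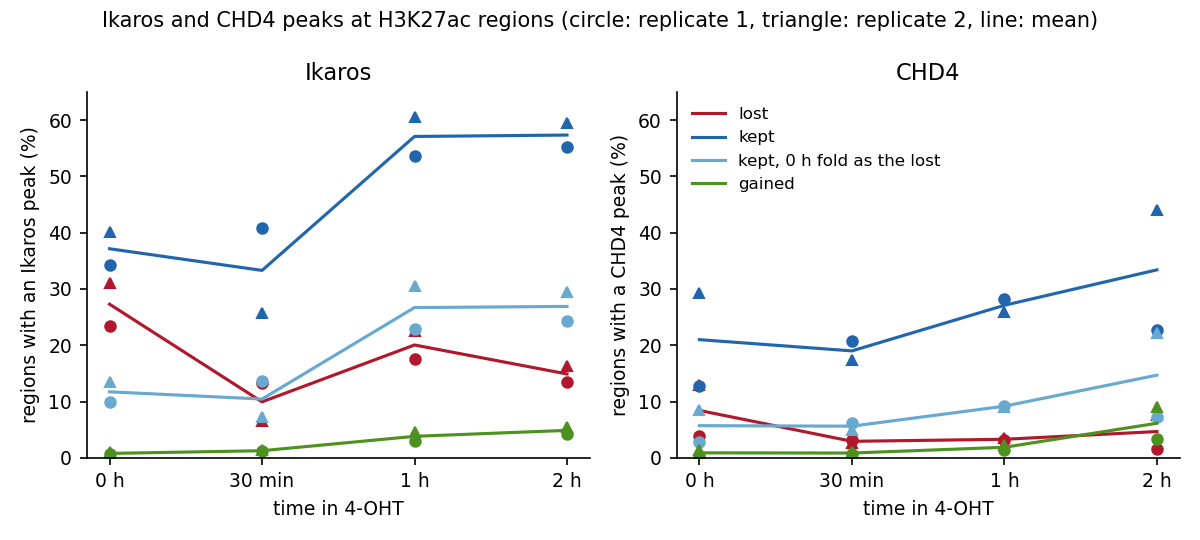
The percentage of H3K27ac regions with an Ikaros peak (left) or a CHD4 peak (right) is plotted against time in 4-OHT for lost, kept, like-strength kept and gained regions. Circles are replicate 1, triangles are replicate 2 and lines join the means. The Ikaros share of lost regions went from a mean of 27.3% at 0 h to 14.9% at 2 h and that of kept regions from 37.2% to 57.3%.

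Region by region, 219 lost regions (20.1%) had an Ikaros peak in both 0 h libraries, under the 27.3% among all regions called for H3K27ac in both 0 h libraries but above the 7.36% among kept regions of like strength. At 2 h the number was 96 (8.79%), against 42.1% of all such regions and 16.6% of the kept ones of like strength. Over the regions lost under other settings, this share was 2.11% of 1419 with lists of equal length. It was 13.7% of 2882 without replicate 1, where a peak in 1 library was enough. An Ikaros peak in both 0 h and neither 2 h library was found at 118 lost regions (10.8%), against 2.42% of all regions called at 0 h, 1.62% of kept regions and 1.21% of kept regions of like strength. Ikaros stayed in both 0 h and both 2 h libraries at 56 lost regions (5.13%, against 21.3% of all) and appeared, in neither 0 h and both 2 h libraries, at 21 (1.92%, against 11.4% of all). No Ikaros library had a peak at 564 lost regions (51.6%), against 24.6% of all, 21.0% of kept regions and 49.3% of kept regions of like strength.

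Read the other way, 427 of the 17668 regions had an Ikaros peak in both 0 h and neither 2 h library. Of these, 118 (27.6%) also lost H3K27ac. The 427 are called regions that lost Ikaros below, by their calls alone, and what the 0 h HA peaks stand for was not tested. Of the 2014 that gained an Ikaros peak, 21 (1.04%) lost H3K27ac, and of the 3772 with Ikaros at both times 56 (1.48%) did. Strength at 0 h differs between these classes. Within a mean 0 h fold from 3 to below 5 the shares were 69.0% of 87 regions that lost Ikaros, 27.8% of 115 with Ikaros at both times, 10.2% of 176 that gained Ikaros and 28.0% of 1606 with no Ikaros peak in any library. From 5 to below 10 they were 26.1% of 199, 2.99% of 670, 0.521% of 576 and 5.54% of 1805. The order was the same in both ranges for the regions that lost Ikaros (highest) and those that gained it (lowest). Whether the HA-Ikaros and H3K27ac libraries of a time and replicate came from the same chromatin is not stated, so a property of the 0 h chromatin common to both targets cannot be told apart from a change of the regions.

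CHD4 was scarce at lost regions. They had a CHD4 peak in 3.94% and 12.9% at 0 h, 3.21% and 2.66% at 30 min, 3.11% and 3.48% at 1 h and 1.65% and 7.69% at 2 h, while kept regions had one in 12.7% and 29.3%, 20.7% and 17.3%, 28.3% and 25.9%, and 22.8% and 44.0%. The replicates at 0 h and at 2 h differed widely, as did their list lengths, 2488 and 6000 peaks at 0 h and 5523 and 9593 at 2 h. The gap to kept regions grew over the time course. Its rho was −0.829 (p = 0.0198 by exact permutation, 0.0397 adjusted, n = 8 libraries). Its r was −0.802 (p = 0.0123 by exact permutation, 0.0246 adjusted), and −0.864 when the 2 h libraries were left out. Against kept regions of like strength the rho was −0.927 (exact permutation adjusted p = 0.00635). The gap to all kept regions lost its call with lists of equal length (rho = −0.488, exact permutation adjusted p = 0.247), under a −log10 q of at least 3 (rho = −0.293, exact permutation adjusted p = 0.513), under a fold of at least 3 (rho = −0.781, exact permutation adjusted p = 0.0698) and without any single library other than 2 h replicate 1 (exact permutation adjusted p from 0.0508 to 0.108). The share in lost regions alone showed no trend that passed (rho = −0.390 with p = 0.361 by exact permutation and 0.361 adjusted). Its r was −0.273 (p = 0.566 by exact permutation, 0.566 adjusted), and −0.580 when the 2 h libraries were left out.

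In both 0 h libraries 31 lost regions (2.84%) had a CHD4 peak, against 9.81% of all regions called at 0 h and 1.73% of kept regions of like strength. In both 2 h libraries 9 (0.824%) did, against 16.2% and 4.07%. Over the regions lost under other settings, this share was 0.101% of 995 at a −log10 q of at least 3. With 1 replicate, where a peak in 1 library was enough, it was 1.65% of 3526 without replicate 2 and 7.63% of 2882 without replicate 1. The peak was in both 0 h and neither 2 h library at 19 lost regions (1.74%, against 0.979% of all), at both times at 7 (0.641%, against 5.99%) and newly present in both 2 h libraries at 0 of 1092 (Wilson 95% upper limit 0.351%, against 4.15%). No CHD4 library had a peak at 871 lost regions (79.8%, against 44.5% of all regions called at 0 h), and at 774 of the 1155 kept regions of like strength. At each of the 4 times, both libraries had a CHD4 peak at a smaller share of lost than of all kept regions. Against kept regions of like strength the direction turned at 0 h, where these had a CHD4 peak in 2.86% and 8.57%, below the lost regions, and was the same at the later times.

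The strongest lost regions show the time course one by one. Folds are relative to the background of each library, whose input is not identified, and they also differed between libraries in kept regions, with medians of 12.1 and 10.1 at 0 h, 13.3 and 9.72 at 30 min, 10.7 and 7.85 at 1 h and 8.19 and 7.92 at 2 h. They are set side by side below, with no test. The highest 0 h fold belonged to a 280 bp region on chromosome 18, 6290 bp from the start site of Impact, a regulator of the kinase GCN2. Its fold was 20.2 and 18.7 at 0 h, 21.7 in 30 min replicate 1 and 24.8 in 1 h replicate 1, with no peak in the other 4 libraries and no Ikaros or CHD4 peak. It was high in replicate 1 up to 1 h and absent in replicate 2 after 0 h, unlike the other 7.

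In a region of 2376 bp whose centre lies in an exon of Gm44929, at chr7:144768600-144770975 and 16626 bp from a start site of Ano1, a calcium-activated chloride channel, the fold was 13.3 and 11.7 at 0 h, 7.58 and 5.84 at 30 min and 3.11 in 1 h replicate 1. The intergenic region at chr7:145046631-145049473, 106706 bp upstream of Ccnd1, had 10.4 and 12.2 at 0 h, 5.05 and 4.68 at 30 min and 4.79 in 1 h replicate 1. Both had an Ikaros peak in the 0 h libraries alone, with folds of 3.80 and 5.03 near Ano1 and 7.76 and 8.82 upstream of Ccnd1.

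An intron of C77080 (chr4:129250802-129252262) went from 10.6 and 10.6 at 0 h to 5.05 and 4.87 at 30 min and 4.09 and 3.19 at 1 h. An intron of Mapt, which encodes tau, at chr11:104245666-104247657, went from 8.78 and 11.6 to 3.98 and 5.26 and then 3.92 and 3.38. These 2 regions were called in every H3K27ac library up to 1 h. Ikaros had peaks in the 0 h libraries at both (6.83 and 7.03 near C77080, 10.1 and 7.98 near Mapt). Near Mapt it also had a peak in both 1 h libraries (the lower fold was 4.55) and none at 30 min or 2 h. Near C77080 it had one in 30 min replicate 1 (4.80), 1 h replicate 2 (4.33) and 2 h replicate 2 (3.84).

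The region near Txnrd3, a thioredoxin reductase gene, at chr6:89639072-89640737, had 11.1 and 9.61 at 0 h, 5.77 and 5.07 at 30 min and 3.57 in 1 h replicate 1. In an intron of Chchd6, which encodes a protein of the mitochondrial inner membrane, at chr6:89567889-89570532, the fold was 11.3 and 8.58 at 0 h and 5.05 and 4.29 at 30 min, with no peak at 1 h. These 2 belong to 1 run of 4 lost regions over 72849 bp with 0 kept regions among them.

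Irgc1 was the only one of the 8 with Ikaros in both 2 h libraries. Its start site lies inside the region at chr7:24444924-24446713, where H3K27ac went from 12.1 and 8.75 at 0 h to 10.1 and 7.0 at 30 min and 6.54 in 1 h replicate 1, and Ikaros had a peak in all 8 libraries, with folds of 4.74 and 9.36 at 0 h and 5.20 and 6.40 at 2 h. Of the 8 regions, all but Impact had Ikaros in both 0 h libraries.

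Among the 96 lost regions with Ikaros in both 2 h libraries, 56 had it in both 0 h libraries and 21 in neither. The strongest lies at chr4:139650293-139651820, 1718 bp upstream of the start site of Tas1r2, a subunit of the sweet taste receptor, and in an intron of the annotated gene Gm21969. Its Ikaros fold was 4.96 and 9.13 at 0 h, 9.89 and 6.97 at 30 min, 11.9 and 9.66 at 1 h and 8.08 and 11.2 at 2 h, and CHD4 had a peak in all 8 libraries, from 3.28 to 5.18. Its H3K27ac fold was 9.32 and 4.76 at 0 h, 4.12 and 3.71 at 30 min and 4.27 in 1 h replicate 1. Ikaros and CHD4 were thus called throughout at this region, before and after its H3K27ac call was lost.

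At the Gpx5 region, 16252 bp from that glutathione peroxidase gene, Ikaros had no peak at 0 h and folds of 4.10 and 4.04 at 30 min, 8.52 and 5.57 at 1 h and 6.53 and 5.76 at 2 h. It is the only one of the 8 without a 0 h Ikaros peak. Its H3K27ac was weak, at 3.92 and 2.68 at 0 h, 2.80 in 30 min replicate 1 and 5.14 in 1 h replicate 1. This region was no longer among the lost ones at a −log10 q of at least 3 or at a fold of at least 3. The other 6, near Btbd9, Fhad1, Sh3gl3 (endophilin A3), Tiam1 (an activator of the GTPase Rac), Tle6 and Zfp36l1 (an RNA-binding protein that promotes mRNA decay), had Ikaros in both 0 h libraries at folds from 3.44 to 13.1 and in both 2 h libraries at 4.94 to 9.60. Tle6 had the highest 0 h values, 9.48 and 13.1, and fell to 6.49 and 5.44 at 2 h.

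The 5 strongest of the 9 lost regions with CHD4 in both 2 h libraries lay near St6galnac6, Tas1r2, Pde4a, Sh3gl3 and Mcam. CHD4 folds there were 3.17 to 4.56 at 2 h. At St6galnac6, a sialyltransferase gene whose start site lies in the region at chr2:32606977-32607935, CHD4 had a peak in all 8 libraries (3.91 and 3.76 at 0 h, 3.47 and 3.59 at 2 h) while Ikaros had a peak in 2 h replicate 1 only (7.27). Its H3K27ac fold was 4.41 and 4.50 at 0 h, 5.47 in 30 min replicate 1 and 3.22 in 1 h replicate 1, and a kept region begins 15 bp away. At Pde4a, a cAMP phosphodiesterase gene, the H3K27ac fold was 3.38 and 4.07 at 0 h, 2.71 in 30 min replicate 1 and 2.66 in 1 h replicate 2. At Mcam, which encodes the adhesion molecule CD146, it was 7.68 and 7.01 at 0 h and 6.10 in 30 min replicate 1.

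**Figure D4:**
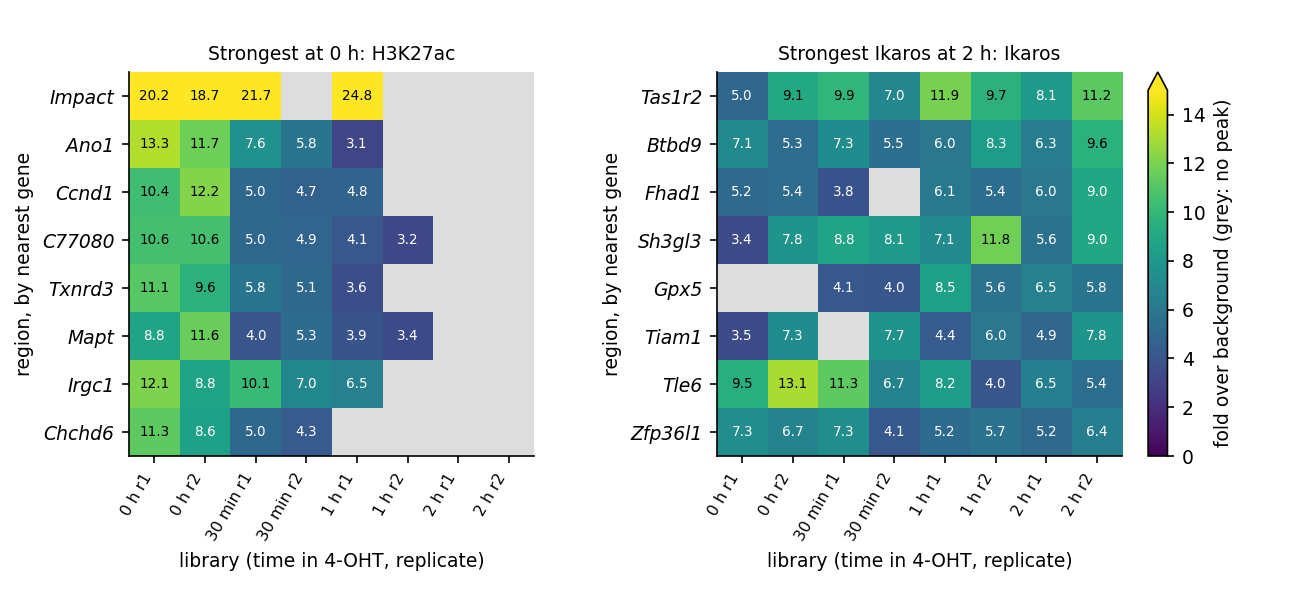
The left panel gives the H3K27ac fold in the 8 libraries for the 8 lost regions strongest at 0 h, and the right panel the Ikaros fold for the 8 with the strongest Ikaros peaks at 2 h, 1 row per region named by its nearest gene (r1 and r2 are the replicates). Grey marks a library without a peak. On the left the 2 h columns are grey by the rule, and on the right Gpx5 alone has no 0 h Ikaros peak.

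Lost regions were mostly away from promoters. A start site lay within 1 kb of 255 (23.4%, Wilson 95% interval 20.9 to 26.0%), against 62.6% of kept regions, 31.5% of kept regions of like strength and 13.1% of gained regions. The median distance to a start site was 6578 bp, and 252 (23.1%) lay more than 20 kb away, against 10.9% of kept regions. The centre was in an intron in 544 (49.8%), intergenic in 435 (39.8%) and in an exon in 113 (10.3%), while 26.6% of kept regions and 33.2% of those of like strength were intergenic. Of all regions called in both 0 h libraries, 2.48% of those within 1 kb of a start site and 11.4% of those farther away were lost. The 2 classes differ in strength, with median 0 h folds of 12.5 and 6.85.

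Members close to start sites and those far from them were alike in Ikaros at 0 h (18.8% and 20.4% with a peak in both libraries). At 2 h the shares were 11.4% and 8.00% for Ikaros and 1.96% and 0.478% for CHD4. By chromosome the lost share of regions ran from 4.03% on chromosome 19 to 8.52% on chromosome 12, with 0 of 14 on Y.

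The nearest kept region to a lost region was a median of 19670 bp away, within 1 kb for 99 lost regions (9.07%) and over 100 kb away for 165 (15.1%), while for gained regions the median was 2376 bp and 36.8% lay within 1 kb. Kept regions had another kept region at a median of 14040 bp, within 1 kb for 10.7%, and those of like strength at 9874 bp, within 1 kb for 16.5%. Grouped into runs with gaps of at most 50 kb, the lost regions formed 937 runs, of which 819 held 1 region, 93 held 2 and 25 held 3 or more. The largest run, of 6 regions over 60518 bp of chromosome 4, lies between the start sites of Tas1r2 and Pax7, with 2 kept regions among them. Pax7 encodes a muscle stem cell factor. The next largest, of 5 regions over 40423 bp, lies near Ccsap and Acta1. These loci were picked after their values were seen.

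The Ccnd1 locus held 4 lost regions within 300 kb. Ccnd1 encodes cyclin D1, which drives G1 progression with CDK4 and CDK6, and it is one of the fast-repressed genes that the study names, so its listing is not independent of these cells. A region 114 bp upstream of the start site (chr7:144940039-144940721) had an H3K27ac fold of 6.41 and 6.84 at 0 h and 5.05 in 30 min replicate 1, with no Ikaros peak in any library and a CHD4 peak in 0 h replicate 2 only. The other 3 lay at −108126, 161919 and 170138 bp from the start site (centre of the region, positive in the direction of transcription). The first and the last are the Ccnd1 and Ano1 regions described above. A kept region at 1164 bp went from 7.32 and 6.67 at 0 h to 3.77 and 2.90 at 2 h, beside the lower median of all kept regions at 2 h given above, and was an Ikaros site. The kept region at −172040 bp, also an Ikaros site, went from 17.7 and 16.4 to 5.03 and 5.77. The other 2 kept regions had no Ikaros site. Of the 4 lost regions, the 2 outermost had Ikaros in both 0 h libraries and none had an Ikaros site after 4-OHT. The regions at 165028 bp (8.59 and 7.22 at 0 h) and −1434 bp (8.23 and 5.69 at 0 h) were Ikaros sites too and kept an H3K27ac call in 1 of the 2 h libraries, with folds of 3.37 and 3.96.

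**Figure D5:**
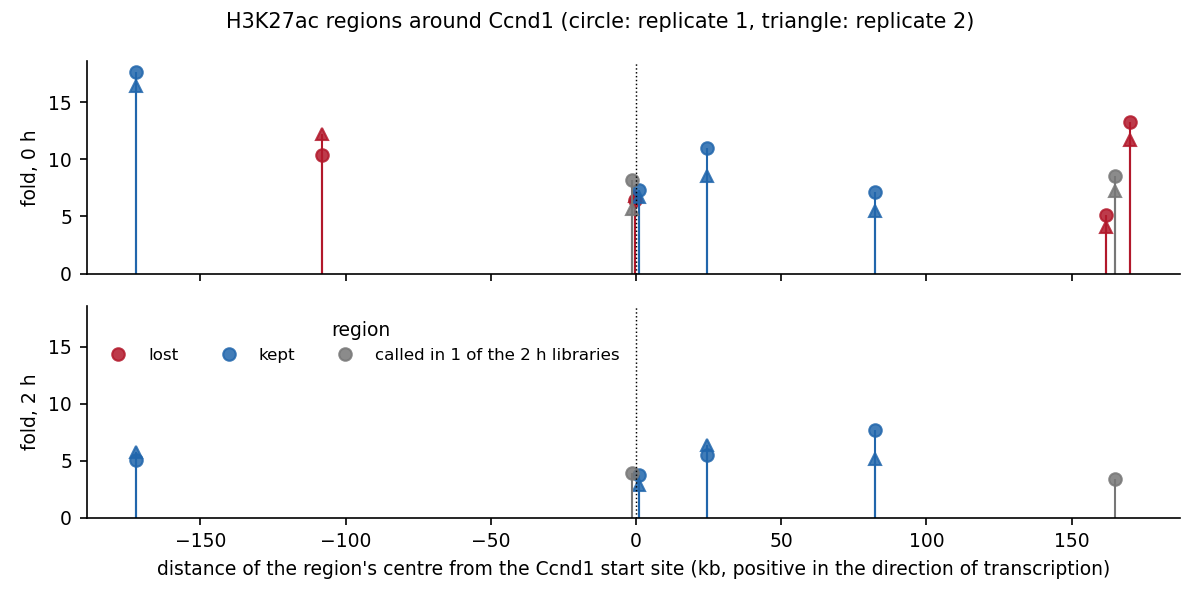
H3K27ac fold at 0 h (top) and 2 h (bottom) is plotted for each region within 300 kb of the Ccnd1 start site against the distance of its centre from that site in kb, positive in the direction of transcription. Circles are replicate 1 and triangles replicate 2. The 4 lost regions (red) have no point at 2 h, and the kept region farthest upstream is at 5.03 and 5.77 there.

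The nearest protein-coding genes of the 1092 regions numbered 928. Of 21951 protein-coding genes, 840 (3.83%) had a lost region within 20 kb of a start site, which is 6.70% of the 12539 with any region called in both 0 h libraries. Of these, 205 had one within 1 kb, 77 had at least 2 within 20 kb and 10 had at least 3. For 136 genes a lost region was the only one called within 1 kb of a start site at 0 h. The strongest of these, chosen after their values were seen, were Zfp683 (the transcription factor Hobit), Kif17 (a kinesin), Cxcr3 (a chemokine receptor) and Khk (ketohexokinase), with 0 h folds of 9.50 and 8.23, 8.59 and 6.78, 7.87 and 6.67, and 8.41 and 6.03.

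Of the 18 fast-repressed genes the study names, 2 (11.1%) had a lost region within 20 kb, Ccnd1 and Itga5. Itga5 encodes integrin alpha 5, a fibronectin receptor subunit, and its region, 1591 bp from the start site, had a fold of 3.86 and 3.03 at 0 h, was called in both 30 min libraries and in neither 1 h library, and had no Ikaros or CHD4 peak. Within 50 kb the count was 3 with Plekho2 (49202 bp away, fold 3.32 and 3.33 at 0 h), beside 7.79% of all protein-coding genes and 11.6% of those with a 0 h region.

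Among 30 B-lineage transcription factors, 4 (13.3%) had a lost region within 20 kb. Tcf3, which encodes the E proteins E12 and E47, had one 8966 bp away with a fold of 5.32 and 6.15 at 0 h, with Ikaros in the 0 h libraries alone and no call after 30 min replicate 1. Tcf4, the related E protein gene, had one 7218 bp away at 4.59 and 3.89 with no Ikaros peak. Klf2, a quiescence factor, had one 15107 bp away at 2.78 and 4.41, with Ikaros in 0 h replicate 2, 30 min replicate 1 and both libraries of 1 h and 2 h. Bcl6, the repressor of germinal centre cells, had one 5362 bp away at 4.05 and 2.66, called in both 1 h H3K27ac libraries, with Ikaros peaks after 4-OHT alone (30 min replicate 1, both 1 h libraries and 2 h replicate 2).

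Of 25 adhesion and migration genes, 4 (16.0%) had one. Ccr7, the lymph node homing receptor, had 2, at 12081 bp (5.18 and 5.52 at 0 h, Ikaros in both 0 h libraries and 1 h replicate 2) and at 6571 bp (4.41 and 3.72, Ikaros in 1 h replicate 2). Pxn, the focal adhesion protein paxillin, had one 4109 bp away at 6.96 and 3.80, with Ikaros in both 0 h libraries and in replicate 1 of 1 h and 2 h, and Selplg, the P-selectin ligand, one 11746 bp away at 3.57 and 3.47 that was uncalled from 30 min on. The fourth gene was Itga5.

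The other lists had 0 to 2 genes each. Of 24 genes of pre-B and B cell receptor signalling, 2 (8.33%) had one, Prkcb (protein kinase C beta, 10587 bp, 5.68 and 3.55 at 0 h) and Vpreb2 (a surrogate light chain gene that closely resembles Vpreb1, 4346 bp, 3.25 and 4.24). Il2ra, the interleukin 2 receptor alpha chain, was the only one of 20 cytokine receptor and STAT5 genes (9121 bp, 4.59 and 4.15). Mcl1, which protects cells from apoptosis, was the only one of 16 BCL2 family genes (7602 bp, 5.50 and 6.88), Notch3 of 17 Notch pathway genes (2016 bp, 5.32 and 4.41), Jund of 17 immediate early genes (19038 bp, 5.00 and 3.72) and Ccnd1 of 21 G1 genes. Ikaros had a peak at the Notch3 region in both 2 h libraries and in replicate 1 of each earlier time, at the Mcl1 region in 0 h replicate 2 and at the Prkcb region in 2 h replicate 1, and none at the Il2ra, Jund and Vpreb2 regions. Of 14 NuRD genes and 8 T cell markers 0 had one within 20 kb, while within 50 kb 3 NuRD genes (21.4%) and 2 T cell markers did, and of 8 myeloid markers 1 had one within 20 kb, Itgam (13104 bp, 6.23 and 4.41, called in all 30 min and 1 h libraries). Most listed genes had a region called at 0 h within 20 kb, so the nearer base is the 6.70% of genes that had one. On that base the shares were 11.8% of the 17 genes the study names, 14.8% of 27 B-lineage factors, 19.0% of 21 adhesion genes, 8.70% of 23 receptor signalling genes, 7.14% of 14 Notch pathway genes and 1 of 4 myeloid markers. They were below the base for 6.67% of 15 BCL2 family genes, 6.25% of 16 immediate early genes, 5.56% of 18 cytokine receptor and STAT5 genes, 1 of 20 G1 genes, 1 of 20 cytosolic ribosomal protein genes, 0 of 14 NuRD genes, 0 of 9 pre-B markers and 0 of 5 T cell markers. Within 50 kb, where the base is 11.6%, they ran from 0 of 10 pre-B markers and 1 of 20 G1 genes to 26.1% of 23 adhesion genes and 2 of 5 T cell markers. Counts this small were not tested.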

How the data were processed

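Per the labels and the methods of the study, the authors used Bowtie2 2.4.2 to align to mm10, Picard 2.23.7 for duplicates and MACS2 2.2.7.1 for peaks. CHD4 peaks were called in broad mode and the others in narrow mode. A blacklist of mm10 is named for the coverage tracks. Whether it was applied to the peaks, the settings for the 30 min libraries and the input used for each library are not given in the sources used here. Chromatin was cut by sonication or MNase per the labels, which do not say which served which library. Each of the 24 deposited lists gives, per peak, a display score (not used), a fold enrichment over local background (a ratio) and the −log10 p-value and −log10 q-value of the authors' caller. The 8 input libraries were not analysed here.

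Regions, calls and overlaps (at least 1 bp) were computed with Python 3.11.15, numpy 2.4.6 and pandas 2.3.3, sequences were read with pysam 0.24.0, and intervals are Wilson 95% intervals from scipy 1.17.1, which cover counting error only. Depth was recovered from the narrow lists. The fold and the p of a peak come from one pileup and one background, which gave whole fragments (within 0.02) for 98.97% to 100.0% of peaks below a −log10 p of 40. The depth of CHD4 is unknown. The recovery and the rule were checked on simulated lists. Coverage limits what could be called: at the library background a peak needed 11 to 15 fragments for H3K27ac and 9 to 13 for Ikaros.

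Coordinates are 1-based on GRCm38, with genes from GENCODE M21. Trends were tested by exact two-sided permutation over 40320 pairings of 8 libraries with time, with Benjamini-Hochberg adjustment over 4 trends. Same-numbered replicates did not deviate together (correlations of their deviations between times −0.00853 to 0.0639 for H3K27ac and −0.0279 to 0.0516 for Ikaros), so no block was used in the main tests. Named regions were the 8 with the highest mean percentile rank of fold in the 0 h H3K27ac lists, the 8 and 5 with the highest rank of Ikaros and CHD4 fold in both 2 h lists, and those within 20 kb of genes in fixed lists. The members, lists and rules were chosen with earlier results of these data known. Alternatives were a stricter −log10 q or fold, lists of equal length, an overlap of 50%, a merge gap of 1 kb, 1 replicate, a 3 kb promoter, a 50 kb gene window, other kept regions and a replicate block.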

Additional observations from a re-analysis of the deposited data

Results flagged for a closer look

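The difference between lost and kept regions in their Ikaros share moved with time (rho = −0.976, exact permutation adjusted p = 0.00317, n = 8 libraries), and the share was lower after 4-OHT than at 0 h in lost regions and higher at 1 h and 2 h in kept regions. The same difference for CHD4 also moved (rho = −0.829, exact permutation adjusted p = 0.0397, n = 8 libraries), and this call was lost under several alternatives, as given below. In both cases the values are those of 2 classes of regions in the same libraries, and the fall within lost regions alone did not pass (adjusted p = 0.361 for each, exact permutation).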

How the results depend on the processing

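Of 113 alternative values over 13 results, 81 counted as unchanged and 0 reversed. Unchanged trends and differences kept their direction and their side of the threshold. Unchanged shares stayed within the Wilson interval of the main share. Unchanged counts stayed in a fixed range around the main count, wide enough to hold 1419 lost regions beside 1092. Only the trends and the difference by Ikaros site could be labelled reversed. The widening Ikaros difference kept its call under every alternative but those with 1 replicate, where 4 libraries cannot pass (rho = −1.0, exact permutation adjusted p = 0.333 without replicate 1 or without replicate 2). Without single libraries its rho was −0.973. With the replicate block it was −0.976 (exact permutation adjusted p = 0.0139), and the block changed no other call (CHD4 difference −0.878, adjusted p = 0.0417).

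The CHD4 difference fell to a rho of −0.293 at a −log10 q of at least 3, −0.781 at a fold of at least 3 and −0.488 with lists of equal length, each without a call, and ran from −0.899 to −0.771 without single libraries or replicates. Lists of equal length, under which 1419 regions counted as lost, brought the trends within lost regions past the threshold (rho = −0.878 for Ikaros and −0.834 for CHD4). Leaving out libraries or a replicate moved these trends from −0.606 to −0.0918 and from −0.753 to −0.110. The cause was not tested.

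The number of lost regions was 914 to 1419 under the other settings and 2882 to 3526 with 1 replicate, which asks for 1 call in place of 2 at each time. At a −log10 q of at least 3, 786 of the 1092 (72.0%) remained lost. Of the 19 regions named for their H3K27ac, Ikaros or CHD4 fold, 18 remained lost there and at a fold of at least 3, all but Gpx5. With a merge gap of 1 kb 13 remained, without those near Txnrd3, Btbd9, Tle6, Zfp36l1, St6galnac6 and Pde4a. With 1 replicate the Ikaros share at 2 h was 9.96% to 13.7%, the CHD4 share 1.65% to 7.63% and the share uncalled at 30 min and 1 h 36.6% to 49.1%. The Ikaros share was 2.11% with lists of equal length and 7.14% with an overlap of 50%, the CHD4 share 0.101% at a −log10 q of at least 3, and the share uncalled early 23.1% with lists of equal length and 15.1% with a merge gap of 1 kb. Within 3 kb of a start site lay 36.3%, in kept regions of like strength the 2 h shares were 16.6% for Ikaros and 4.07% for CHD4, and 32 listed genes lay within 50 kb in place of 17 within 20 kb.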
